A study of Mus musculus with 9 samples.

Results

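The genes of eicosanoid synthesis described here are 10 of the 54146 genes in the deposited table: Pla2g4a, Ptgs1, Ptgs2, Ptges, Hpgds, Alox5, Alox5ap, Lta4h, Ltc4s and Alox15. They were chosen by name, as the enzymes (and 1 helper protein) that release arachidonic acid from membranes and turn it into prostaglandins and leukotrienes. All 10 passed the filter on low counts that left 15886 genes for testing. Their levels were described in all 9 libraries and compared between all 3 groups.

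RNA came from eosinophils, granulocytes of allergy and tissue inflammation, that were collected by flow cytometry from quadriceps muscle of adult mice as live CD45+ CD11c- Gr1- MHCII- SiglecF+ cells. There were 3 groups of 3 libraries, named by the titles as mdx_IL5Tg, mdx and IL5Tg, with replicates described as biological. The mdx mouse lacks dystrophin and serves as a model of Duchenne muscular dystrophy, and IL5Tg mice carry a transgene for interleukin-5, the cytokine that drives eosinophil production. The mdx_IL5Tg mice combine both, so mdx_IL5Tg against IL5Tg compares transgenic mice with and without dystrophic muscle, mdx_IL5Tg against mdx compares dystrophic mice with and without the transgene, and mdx against IL5Tg sets the single genotypes side by side. No group analysed here lacks both alleles, so an interaction could not be fitted. All 9 samples, those titled IL5Tg too, carry a strain label of mdx, so labels and titles disagree and the groups follow the titles. Neither the promoter that drives the transgene nor the number of animals behind a library is given in the sources used here.

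Eicosanoids are short-lived lipid signals made on demand from arachidonic acid. Cytosolic phospholipase A2 frees the fatty acid, cyclooxygenases turn it into the prostaglandin precursor from which terminal synthases make each prostaglandin, and lipoxygenases turn it into leukotrienes and hydroxylated fatty acids. Eosinophils are known for making cysteinyl leukotrienes and lipoxygenase products, which act on blood vessels, smooth muscle and other leukocytes.

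The sequences before the transcription starts of both cyclooxygenase genes and of a pair of leukotriene enzymes are shown because Ptgs1, Alox5 and Lta4h were lower in mdx libraries than in either other group whereas Ptgs2 did not pass the test in any comparison. Each is the 250 bases before the start in RefSeq's table (GRCm38.p6), written 5′ to 3′ on the gene's strand, with capitals marking a match to one of 7 motifs. Ptgs1 lies at chr2:36230176-36230425 (+), Ptgs2 at chr1:150099781-150100030 (+), Alox5 at chr6:116461179-116461428 (-) and Lta4h at chr10:93453146-93453395 (+). The table held 8 of the 10 genes, and Alox15 and Alox5ap are named only.
Ptgs1: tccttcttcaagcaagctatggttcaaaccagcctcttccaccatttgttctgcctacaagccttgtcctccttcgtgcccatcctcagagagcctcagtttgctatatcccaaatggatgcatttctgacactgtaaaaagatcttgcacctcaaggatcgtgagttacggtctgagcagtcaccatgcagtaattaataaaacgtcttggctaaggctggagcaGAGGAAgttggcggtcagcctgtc
Ptgs2: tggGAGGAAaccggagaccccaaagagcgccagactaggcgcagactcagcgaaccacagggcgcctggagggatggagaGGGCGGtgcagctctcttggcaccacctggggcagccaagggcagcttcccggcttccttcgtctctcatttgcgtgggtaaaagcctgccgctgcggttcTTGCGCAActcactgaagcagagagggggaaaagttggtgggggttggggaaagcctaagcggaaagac
Alox5: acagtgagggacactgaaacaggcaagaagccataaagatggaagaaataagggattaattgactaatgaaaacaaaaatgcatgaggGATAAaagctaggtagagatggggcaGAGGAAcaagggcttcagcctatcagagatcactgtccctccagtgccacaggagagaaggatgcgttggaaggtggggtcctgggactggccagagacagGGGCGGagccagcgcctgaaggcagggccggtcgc
Lta4h: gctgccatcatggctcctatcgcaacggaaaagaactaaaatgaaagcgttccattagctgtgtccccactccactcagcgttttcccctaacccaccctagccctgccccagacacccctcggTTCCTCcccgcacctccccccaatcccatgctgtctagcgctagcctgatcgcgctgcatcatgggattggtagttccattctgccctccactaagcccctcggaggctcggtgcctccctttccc

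The motifs were short consensus letters searched on both strands, chosen with results of these data known: TTCNNNGAA for STAT factors (in 7.02% of the 32851 windows of the same length in the table), GATAA for GATA factors (22.6%), GAGGAA for PU.1 (23.3%), TTGCNNAA for C/EBP factors (9.56%), ACGTG for the hypoxia response element (16.6%), GGGCGG for the GC box (32.7%) and TATAAA for the TATA box (12.4%). GAGGAA was found in all 4 sequences, 24 to 19 bases before the start in Ptgs1 and on the opposite strand (TTCCTC) in Lta4h, so its presence did not separate Ptgs2 from the other 3. The windows of Hpgds (49 to 44 bases before the start) and Ptges (149 to 144, opposite strand), not shown, held it too. Those of Ltc4s and Pla2g4a, also not shown, did not. The window of Ptgs2 held TTGCGCAA, a C/EBP match on both strands at 69 to 62 bases before the start, and the window of Ptgs1 held no C/EBP or GC box match. GC content was 48.0% before Ptgs1, 61.6% before Ptgs2, 52.8% before Alox5 and 58.8% before Lta4h. None of the matches shown overlapped a match to another motif, and a match to such short letters is a description of the sequence only.

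Library totals ranged from 26752780 to 58368283 counts, and no pair of replicates agreed within sampling noise. Il5 was at 664 to 724 CPM (TMM-normalised counts relative to library size) in mdx_IL5Tg, 0.265 to 0.402 CPM in mdx and 317 to 523 CPM in IL5Tg, high in the libraries titled with the transgene. The eosinophil receptor genes Ccr3 (1310.3 to 1441 CPM in mdx_IL5Tg, 809 to 1134 CPM in mdx, 827 to 1064 CPM in IL5Tg) and Siglecf were detected in every library. Siglecf, whose protein was used in the sort, stood at 449 to 584 CPM in mdx_IL5Tg, 129 to 177 CPM in mdx and 329.9 to 394 CPM in IL5Tg, with no overlap between groups. The 11 eosinophil genes summed to 3040.2 to 3353 CPM in mdx_IL5Tg, 1201 to 2283 CPM in mdx and 4735 to 14459 CPM in IL5Tg, where library S7 was highest. Of these 11, 2 were called higher in mdx_IL5Tg against mdx (median log2 fold change 1.45) and 7 lower in mdx against IL5Tg (median -3.60). In mdx_IL5Tg against IL5Tg 0 were called by edgeR, with a median of -2.21. All mdx_IL5Tg libraries lay below all IL5Tg libraries for 6 of them and above for 3, beside 16.4% and 19.4% of all tested genes. Marker genes of other cells also differed between groups. For all marker lists, the share of all tested genes called serves for comparison. It was 10.1% higher and 11.5% lower in mdx_IL5Tg against mdx, and 11.8% and 8.96% in mdx against IL5Tg. In mdx_IL5Tg against IL5Tg it was 4.35% and 2.87%. The 6 fibroblast genes summed to 715 to 2873 CPM in mdx_IL5Tg, 4221 to 10631 CPM in mdx and 929 to 2191 CPM in IL5Tg, with 5 of 6 called lower in mdx_IL5Tg against mdx and 5 called higher in mdx against IL5Tg. Of 12 macrophage genes, 8 were called lower and 1 higher in mdx_IL5Tg against mdx, 10 higher in mdx against IL5Tg, and 5 higher in mdx_IL5Tg against IL5Tg. Their sum, most of it Adgre1, which eosinophils also express, was 2509 to 2775 CPM in mdx_IL5Tg, 1692 to 2186 CPM in mdx and 1606 to 1975 CPM in IL5Tg. The 5 muscle fibre genes summed to 11.2 to 13.6 CPM in mdx_IL5Tg, 21.4 to 44.2 CPM in mdx and 3.49 to 4.32 CPM in IL5Tg. The 6 proliferation genes summed to 32.8 to 49.1 CPM in mdx_IL5Tg, 36.4 to 88.9 CPM in mdx and 89.7 to 426 CPM in IL5Tg. Mitochondrial transcripts held 0.383% of counts in mdx S5 and 1.28% to 2.29% in the other libraries. Their part in the results below was not tested, and in bulk samples fewer cells of a type and less RNA per cell cannot be told apart.

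Of the 10 enzymes, 2 were called higher in mdx_IL5Tg against IL5Tg (edgeR's quasi-likelihood test, adjusted p below 0.05), where 7.22% of all tested genes were called, 4.35% higher and 2.87% lower. These were Ptgs1 and Alox5. No enzyme was called lower there by edgeR, none at an unadjusted p below 0.05, and 0 by DESeq2 or limma voom. In mdx_IL5Tg against mdx 5 were called higher (Ptgs1, Alox15, Alox5, Alox5ap and Lta4h) and 2 lower (Hpgds and Ptges), beside 21.6% of all genes called, 10.1% higher and 11.5% lower. In mdx against IL5Tg 1 was called higher (Hpgds) and 4 lower (Ptgs1, Alox5, Alox5ap and Lta4h), beside 20.8% of all genes, 11.8% higher and 8.96% lower. The 3 comparisons share libraries in pairs, so their values are given side by side and not as independent evidence.

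The median log2 fold change of the 10 enzymes was 0.34 in mdx_IL5Tg against IL5Tg, 1.00 in mdx_IL5Tg against mdx and -0.54 in mdx against IL5Tg, beside medians over all tested genes of -0.05, -0.13 and 0.01. All 3 mdx_IL5Tg libraries lay above all 3 IL5Tg libraries for 4 enzymes, as they did for 19.4% of all genes. They lay above all mdx libraries for 6 enzymes and below them for 1, beside 18.8% and 23.2% of all genes. The mdx libraries lay above all IL5Tg libraries for 2 enzymes and below them for 5, beside 22.2% and 19.7% of all genes.

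**Figure D1:**
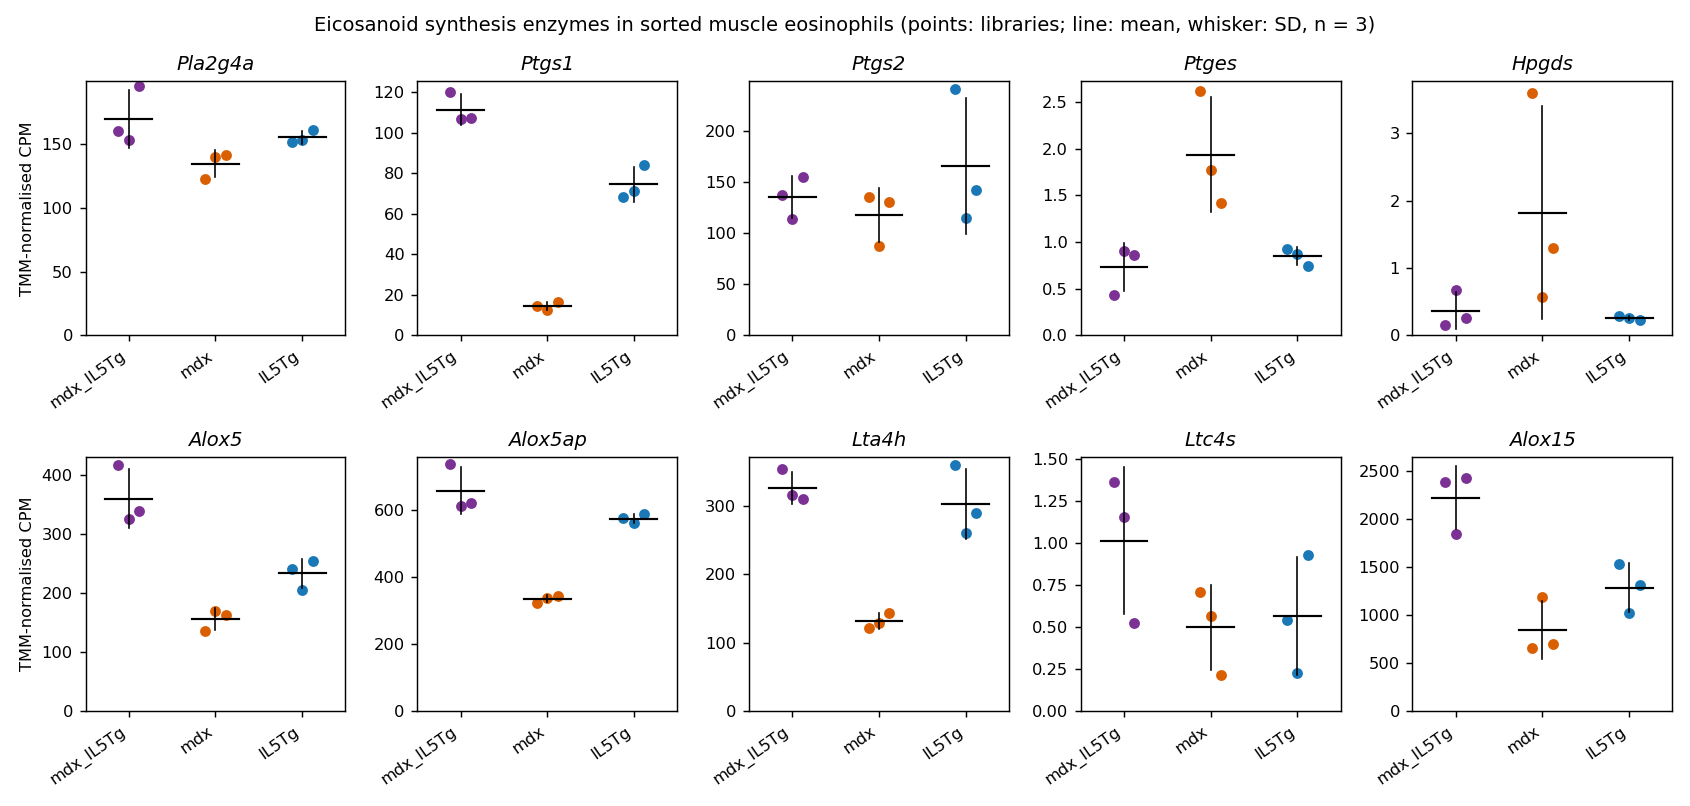
TMM-normalised CPM (vertical axes, from 0) of the 10 enzymes in each library, with mdx_IL5Tg, mdx and IL5Tg from left to right, points for libraries, lines for means and whiskers for SD (n = 3). Ptgs1, Alox5, Alox5ap, Lta4h and, by less and not called, Pla2g4a are lowest in all 3 mdx libraries, while Hpgds and Ptges average highest in mdx.

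**Figure D2:**
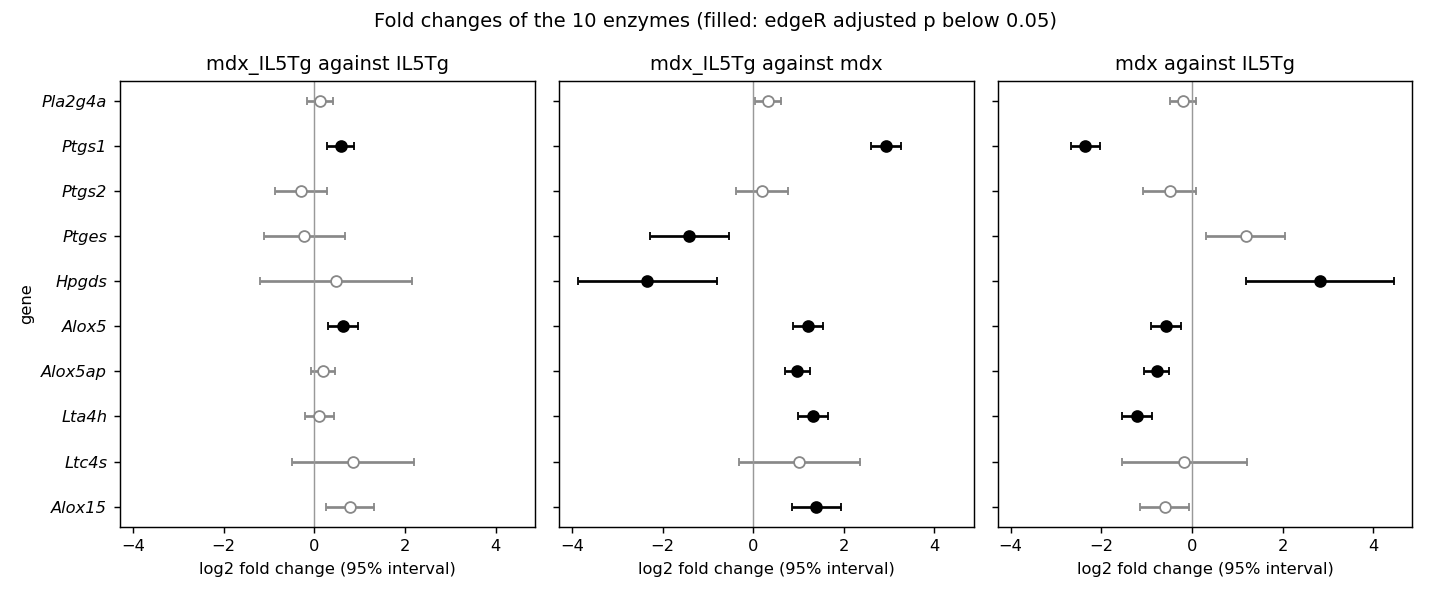
Log2 fold change (horizontal axis) of each enzyme with its 95% interval in the 3 comparisons, filled where edgeR's adjusted p was below 0.05. Ptgs1 stands at 2.93 in mdx_IL5Tg against mdx and -2.35 in mdx against IL5Tg, and Hpgds lies on the opposite side of 0 in both.

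Pla2g4a, which encodes the cytosolic phospholipase A2 that cuts arachidonic acid from membrane lipids, stood at similar levels in all groups. It had 160.1, 154 and 196 CPM in mdx_IL5Tg, against 123, 139.9 and 142 CPM in mdx and 152, 154 and 161 CPM in IL5Tg. The mdx_IL5Tg libraries overlapped those of IL5Tg, and the mdx libraries lay below all libraries of both other groups. The log2 fold change was 0.13 (95% interval -0.16 to 0.41) in mdx_IL5Tg against IL5Tg, 0.33 (0.05 to 0.62) in mdx_IL5Tg against mdx and -0.21 (-0.49 to 0.08) in mdx against IL5Tg, with edgeR adjusted p of 0.56, 0.089 and 0.27. The second of these passed with DESeq2 (0.38, adjusted p = 0.039) and without IL5Tg S7 (0.43, edgeR adjusted p = 0.043).

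Of the cyclooxygenase genes, Ptgs1 passed the test in all 3 comparisons and Ptgs2 in none, and the difference between the genes was not tested. Ptgs1 encodes cyclooxygenase 1, the form that many cells keep switched on, and lies on GRCm38 chromosome 2 (36230426 to 36252272, plus strand). Its level was 120.1, 107 and 107 CPM in mdx_IL5Tg, against 14.7, 12.8 and 16.3 CPM in mdx and 68.3, 71.0 and 84.1 CPM in IL5Tg. The 3 groups did not overlap, with mdx lowest and mdx_IL5Tg highest. Ptgs1 was 7.63-fold higher in mdx_IL5Tg than in mdx (log2 2.93, SE 0.15, edgeR adjusted p = 1.3e-06) and ranked 7 by p among all tested genes. It was 5.10-fold lower in mdx than in IL5Tg (log2 -2.35, SE 0.14, edgeR adjusted p = 5.1e-06). Both calls held in all 17 alternatives, with log2 2.60 to 3.11 in the first of the pair.

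Between the transgenic groups the difference in Ptgs1 was smaller, 1.50-fold higher in mdx_IL5Tg than in IL5Tg (log2 0.58, SE 0.14, edgeR adjusted p = 0.034). That call ended without mdx_IL5Tg S1, mdx_IL5Tg S2, IL5Tg S7 or IL5Tg S8 (log2 0.57 to 0.66, edgeR adjusted p = 0.070 to 0.14) and with library totals only (log2 0.37, edgeR adjusted p = 0.12). Of 3844 windows of 50 bases in the transcripts of Ptgs1, 2.63% were shared with Gm43621, an unclassified model on the opposite strand, and the strand setting of the counting is not given. Platelets, which also make Ptgs1, were checked with 6 marker genes, 3 of them tested. They summed to 72.4 to 95.6 CPM in mdx_IL5Tg, 33.6 to 66.3 CPM in mdx and 92.8 to 108 CPM in IL5Tg, with Gp9 at 0 counts in 3 libraries. In both mdx_IL5Tg against mdx and mdx against IL5Tg, 1 of the 3 was called higher and 1 lower, and in mdx_IL5Tg against IL5Tg 1 was called higher. The shares of all tested genes called are given above, and the part of platelets in the level of Ptgs1 was not tested.

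Ptgs2, which encodes the inducible cyclooxygenase 2, lies on GRCm38 chromosome 1 (150100031 to 150108227, plus strand). It had 138, 114 and 155 CPM in mdx_IL5Tg, against 136, 87.9 and 131 CPM in mdx and 242, 115 and 143 CPM in IL5Tg. All groups overlapped, and IL5Tg S7 stood above every other library. The log2 fold change was -0.30 (95% interval -0.87 to 0.28) in mdx_IL5Tg against IL5Tg, 0.20 (-0.38 to 0.78) in mdx_IL5Tg against mdx and -0.49 (-1.07 to 0.09) in mdx against IL5Tg, and none passed (edgeR adjusted p = 0.50, 0.62 and 0.20). Without IL5Tg S7 the first of these was 0.12 (edgeR adjusted p = 0.76).

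Genes can be roughly compared by CPM per kb of exon. Ptgs1 stood at 28.7 ± 1.94 in mdx_IL5Tg, 3.76 ± 0.463 in mdx and 19.2 ± 2.18 in IL5Tg on that scale (SD, n = 3). Ptgs2 stood at 29.6 ± 4.50, 25.8 ± 5.73 and 36.3 ± 14.5 in the same groups. The ratio of Ptgs1 to Ptgs2 per kb was 1.03, 1.11 and 0.817 in the mdx_IL5Tg libraries, 0.127, 0.171 and 0.148 in the mdx libraries and 0.333, 0.729 and 0.695 in the IL5Tg libraries. Both cyclooxygenases were thus near equal on this scale in mdx_IL5Tg, while in mdx the level of Ptgs2 per kb was 5.85 to 7.86 times that of Ptgs1. The length counts every annotated exon base of a gene once, whichever isoforms the cells make, so comparisons between genes are approximate. The ratio did not overlap between any groups, and no test was run on it.

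**Figure D3:**
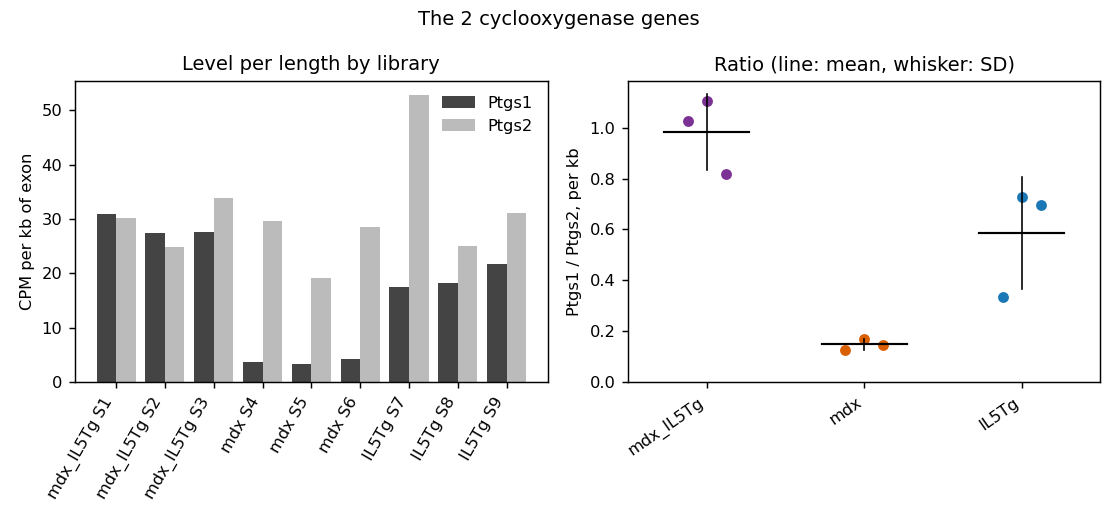
Left, level per length (CPM per kb of exon) of Ptgs1 and Ptgs2 in each library, and right, the ratio of Ptgs1 to Ptgs2 by group (points: libraries, line: mean, whisker: SD, n = 3). The ratio is 0.817 to 1.11 in mdx_IL5Tg, 0.127 to 0.171 in mdx and 0.333 to 0.729 in IL5Tg.

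The terminal prostaglandin synthases among the 10 were scarce and went the other way. Hpgds encodes the haematopoietic synthase of prostaglandin D2 (GRCm38 chromosome 6, 65117293 to 65144908, minus strand). It had 8, 27 and 10 counts in mdx_IL5Tg (0.158, 0.680 and 0.261 CPM), against 172, 17 and 54 counts in mdx (3.60, 0.569 and 1.302 CPM) and 9, 8 and 6 counts in IL5Tg (0.288, 0.260 and 0.224 CPM). The mdx libraries ranged widely, with S4 highest, and S5 lay below mdx_IL5Tg S2.

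Hpgds was called lower in mdx_IL5Tg against mdx (log2 -2.33, SE 0.70, edgeR adjusted p = 0.037) and higher in mdx against IL5Tg (log2 2.82, SE 0.74, edgeR adjusted p = 0.022), while mdx_IL5Tg against IL5Tg gave log2 0.49 (SE 0.76, edgeR adjusted p = 0.72). Without mdx S4 these were -1.28 (edgeR adjusted p = 0.23) and 1.82 (edgeR adjusted p = 0.11). The first call also ended with only the groups compared and without mdx_IL5Tg S1, mdx_IL5Tg S3, mdx S6 or any 1 IL5Tg library (edgeR adjusted p = 0.053 to 0.15), and the second without any 1 IL5Tg library (0.064 to 0.078) and with limma voom (adjusted p = 0.067).

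Ptges encodes the inducible microsomal synthase of prostaglandin E2 (GRCm38 chromosome 2, 30889471 to 30929863, minus strand). It had 22, 36 and 33 counts in mdx_IL5Tg (0.435, 0.906 and 0.862 CPM), against 125, 53 and 59 counts in mdx (2.62, 1.77 and 1.42 CPM) and 29, 27 and 20 counts in IL5Tg (0.928, 0.876 and 0.746 CPM). All mdx libraries lay above all others. It was 2.65-fold lower in mdx_IL5Tg than in mdx (log2 -1.41, SE 0.39, edgeR adjusted p = 0.028). Its log2 fold change of 1.19 (SE 0.39) in mdx against IL5Tg missed the threshold (edgeR adjusted p = 0.055). The call ended without mdx_IL5Tg S1, mdx_IL5Tg S3, mdx S4 or IL5Tg S9 and with only the groups compared (log2 -1.03 to -1.43, edgeR adjusted p = 0.051 to 0.14). The difference between mdx and IL5Tg passed with DESeq2 (adjusted p = 0.033), with library totals only and with a stricter filter (edgeR adjusted p = 0.047 and 0.048).

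Mast cells and macrophages make Hpgds and Ptges too, and some of their markers were likewise higher in mdx. In mdx_IL5Tg against mdx, 1 gene of each cell type's list was called the other way. Of 11 mast cell and basophil genes 8 were tested. In mdx_IL5Tg against mdx 1 was called higher and 3 lower, beside 10.1% and 11.5% of all tested genes. In mdx against IL5Tg 4 were called higher and 1 lower, beside 11.8% and 8.96%. The mast cell proteases Mcpt4, Tpsb2 and Cma1 stood at 4.67, 4.44 and 5.97 CPM in mdx S4, at 0.530 to 3.38 CPM in the other mdx libraries, and at 0.0522 to 0.504 CPM in mdx_IL5Tg and 0.0373 to 0.389 CPM in IL5Tg. The whole list summed to 77.7 to 86.6 CPM in mdx_IL5Tg, 47.6 to 69.0 CPM in mdx and 66.9 to 115 CPM in IL5Tg, and Mrgprb2, a receptor known from mast cells of connective tissue, was at 0 counts in every library but mdx S4, while Fcer1a was at 0 in mdx_IL5Tg S1 and mdx S5. C1qb, of tissue macrophages, stood at 11.2, 15.5 and 2.38 CPM in mdx_IL5Tg, 63.2, 43.1 and 29.4 CPM in mdx and 1.12, 0.422 and 1.53 CPM in IL5Tg. The macrophage list summed to 2509 to 2775 CPM in mdx_IL5Tg, 1692 to 2186 CPM in mdx and 1606 to 1975 CPM in IL5Tg. Both list sums were thus lower in mdx than in mdx_IL5Tg, though most of the macrophage sum was Adgre1, which eosinophils also express. Of the 12 macrophage genes, 8 were called lower and 1 higher in mdx_IL5Tg against mdx, beside 11.5% and 10.1% of all tested genes. In mdx against IL5Tg 10 were called higher and 0 lower, beside 11.8% and 8.96%. Within mdx, C1qb and Ptges (2.62, 1.77 and 1.42 CPM) both fell from S4 to S5 to S6, while Hpgds was lowest in S5, at 17 counts. The part of mast cells and macrophages, and of the fibroblast genes given above, in the levels of Hpgds and Ptges was not tested.

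**Figure D4:**
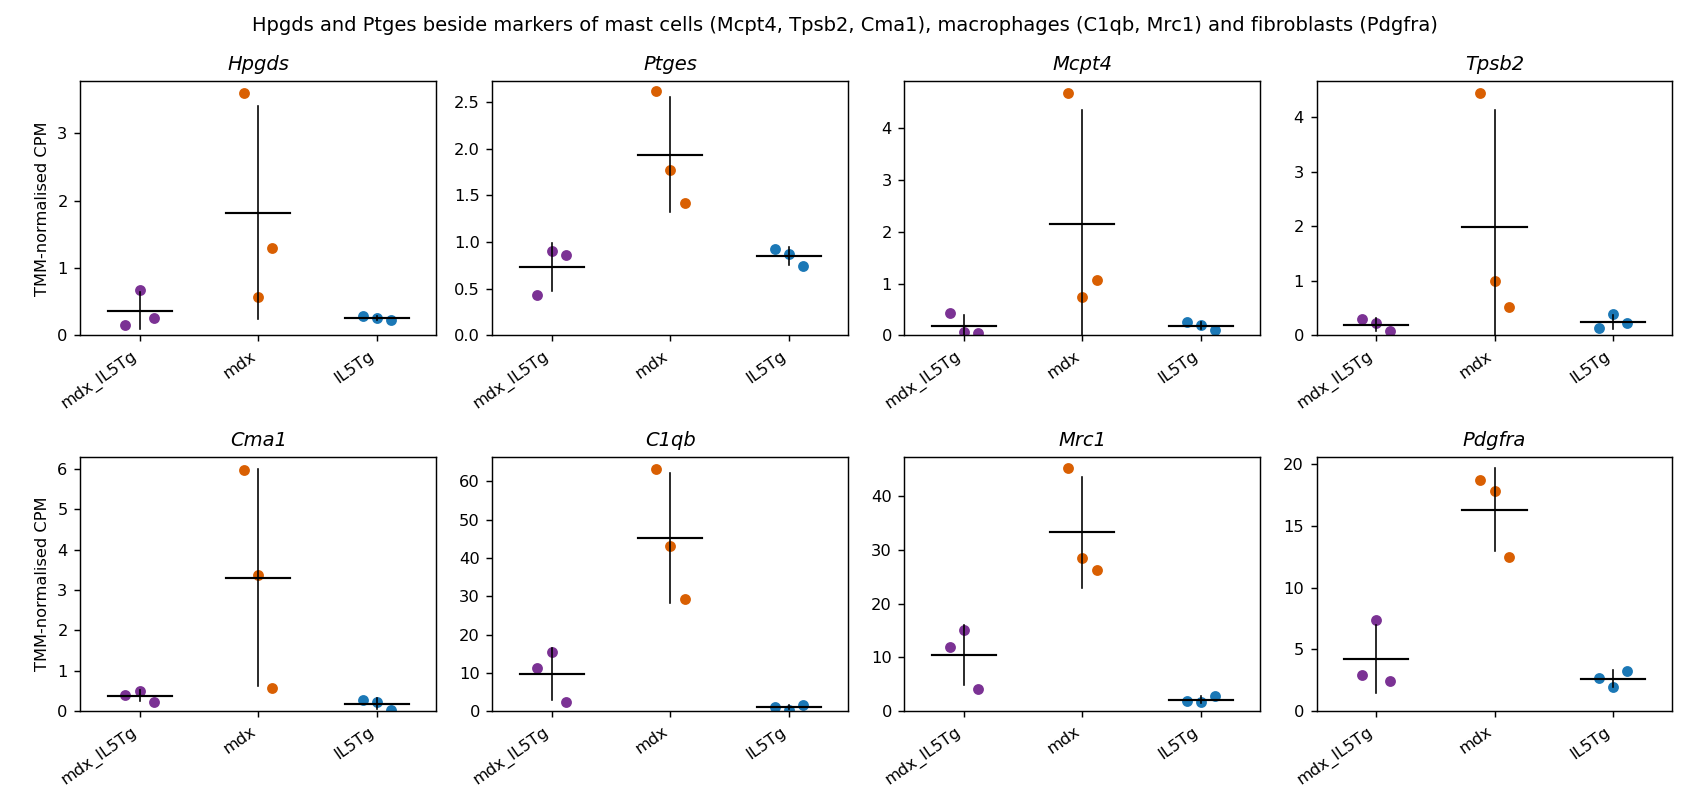
TMM-normalised CPM of Hpgds and Ptges beside mast cell (Mcpt4, Tpsb2, Cma1), macrophage (C1qb, Mrc1) and fibroblast (Pdgfra) markers in each library (line: mean, whisker: SD, n = 3, drawn down to 0 at most). Library mdx S4 is highest for Hpgds (3.60 CPM), Ptges (2.62 CPM) and the mast cell proteases (4.44 to 5.97 CPM). The markers drawn are part of longer lists, whose mast cell and macrophage sums were lower in mdx than in mdx_IL5Tg. Most of the macrophage sum was Adgre1, which eosinophils also express. Of 12 macrophage genes, 8 were called lower and 1 higher in mdx_IL5Tg against mdx, beside 11.5% and 10.1% of all tested genes.

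In the 5-lipoxygenase arm Alox5, Alox5ap and Lta4h were abundant and lowest in mdx, and Ltc4s was scarce. Alox5 encodes 5-lipoxygenase, which makes leukotriene A4 (GRCm38 chromosome 6, 116410077 to 116461178, minus strand). It had 418, 326 and 339 CPM in mdx_IL5Tg, against 135, 170.3 and 163 CPM in mdx and 241, 206 and 254 CPM in IL5Tg. The 3 groups did not overlap. Alox5 was 1.54-fold higher in mdx_IL5Tg than in IL5Tg (log2 0.63, SE 0.15, edgeR adjusted p = 0.036) and 2.31-fold higher than in mdx (log2 1.21, SE 0.15, edgeR adjusted p = 5.4e-04), and 1.50-fold lower in mdx than in IL5Tg (log2 -0.58, SE 0.15, edgeR adjusted p = 0.020). The second of these held in all 17 alternatives. The first ended without mdx_IL5Tg S1, mdx_IL5Tg S2 or any 1 IL5Tg library and with library totals only (log2 0.40 to 0.74, edgeR adjusted p = 0.067 to 0.16), and the third without mdx S4 or IL5Tg S9 (log2 -0.51 and -0.56, edgeR adjusted p = 0.066 and 0.071).

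Alox5ap encodes the 5-lipoxygenase activating protein, which presents arachidonic acid to the enzyme (GRCm38 chromosome 5, 149264767 to 149288153, plus strand). It had 739, 614 and 622 CPM in mdx_IL5Tg, against 324, 337 and 345 CPM in mdx and 575, 561 and 589 CPM in IL5Tg. The mdx libraries lay well below the rest, and the IL5Tg libraries just below those of mdx_IL5Tg. It was 1.96-fold higher in mdx_IL5Tg than in mdx (log2 0.97, SE 0.12, edgeR adjusted p = 5.8e-04) and 1.71-fold lower in mdx than in IL5Tg (log2 -0.78, SE 0.12, edgeR adjusted p = 0.0018). Between mdx_IL5Tg and IL5Tg it stood at log2 0.20 (95% interval -0.07 to 0.46, edgeR adjusted p = 0.33), a difference that turned to -0.02 with library totals only. In its transcripts 6.8% of windows of 50 bases were shared with the antisense gene Gm19719.

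Leukotriene A4 has 2 fates, and the genes for both were measured. Lta4h encodes the hydrolase that turns it into leukotriene B4, an attractant of leukocytes (GRCm38 chromosome 10, 93453411 to 93484875, plus strand). It had 353, 316 and 309.9 CPM in mdx_IL5Tg, against 121, 128 and 144 CPM in mdx and 359.8, 259.7 and 289.8 CPM in IL5Tg. The transgenic groups overlapped and the mdx libraries lay below both. Lta4h was 2.49-fold higher in mdx_IL5Tg than in mdx (log2 1.31, SE 0.15, edgeR adjusted p = 2.9e-04) and 2.31-fold lower in mdx than in IL5Tg (log2 -1.21, SE 0.15, edgeR adjusted p = 4.4e-04). The log2 fold change in mdx_IL5Tg against IL5Tg was 0.11 (95% interval -0.22 to 0.43, edgeR adjusted p = 0.68).

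Ltc4s encodes the synthase that joins leukotriene A4 to glutathione, the entry to the cysteinyl leukotrienes for which eosinophils are known (GRCm38 chromosome 11, 50236461 to 50238616, minus strand). It was near the lower limit of detection, with 69, 46 and 20 counts in mdx_IL5Tg (1.36, 1.16 and 0.522 CPM), against 34, 17 and 9 counts in mdx (0.712, 0.569 and 0.217 CPM) and 17, 7 and 25 counts in IL5Tg (0.544, 0.227 and 0.932 CPM). All groups overlapped. None of its differences passed, with log2 0.85 (95% interval -0.50 to 2.19) in mdx_IL5Tg against IL5Tg, 1.02 (-0.31 to 2.36) in mdx_IL5Tg against mdx and -0.17 (-1.55 to 1.21) in mdx against IL5Tg (edgeR adjusted p = 0.39, 0.25 and 0.87). In its transcripts 15.2% of windows of 50 bases were shared with the antisense gene Gm26542, and reads of the pair cannot be told apart without the strand.

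Alox15 was the most abundant of the 10 genes. It encodes the lipoxygenase that in mice adds oxygen at carbon 12 or 15 of arachidonic acid and that is known as a major eosinophil product (GRCm38 chromosome 11, 70344152 to 70352031, minus strand). It had 2384, 1839.7 and 2429.7 CPM in mdx_IL5Tg, against 652, 1190.0 and 694 CPM in mdx and 1528, 1017 and 1309 CPM in IL5Tg. The mdx_IL5Tg libraries lay above all others, and mdx S5 lay within the range of IL5Tg. Alox15 was 2.62-fold higher in mdx_IL5Tg than in mdx (log2 1.39, SE 0.25, edgeR adjusted p = 0.0039), a call that held in all 17 alternatives.

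The other differences in Alox15 lay near the threshold. Between mdx_IL5Tg and IL5Tg the log2 fold change was 0.79 (SE 0.24, edgeR adjusted p = 0.072), and it passed with DESeq2, with no filter, with only the groups compared and without mdx S5 (0.78 to 0.80, adjusted p = 0.0044 to 0.036). Between mdx and IL5Tg it was -0.60 (SE 0.24, edgeR adjusted p = 0.0995), and it passed with DESeq2 (-0.64, adjusted p = 0.048), with no filter (-0.61, edgeR adjusted p = 0.023) and without mdx S5 (-0.93, edgeR adjusted p = 0.011). With IL5Tg S7 and mdx S5 both left out, an alternative chosen after seeing the data, both passed (log2 0.94 and -0.79, edgeR adjusted p = 0.017 and 0.019). With the same pair left out, the enzymes called numbered 3 in mdx_IL5Tg against IL5Tg, 7 in mdx_IL5Tg against mdx and 6 in mdx against IL5Tg. Over all genes, 1739, 4495 and 2848 of 16511 were called in that setting, against 1147, 3433 and 3298 of 15886 with all libraries.

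Set side by side per length, the level of Alox15 was 904 ± 134 CPM per kb in mdx_IL5Tg, 345 ± 122 in mdx and 524 ± 104 in IL5Tg (SD, n = 3), which ranked 35, 65 and 48 among 15879 genes with a known length. Alox5ap followed at 464 ± 49.1, 236 ± 7.47 and 405 ± 9.95 CPM per kb in the same groups. Alox5 stood at 87.9 ± 12.1, 38.0 ± 4.45 and 56.9 ± 6.06 CPM per kb, and Lta4h at 53.5 ± 3.88, 21.5 ± 1.91 and 49.7 ± 8.41. Pla2g4a stood at 26.6 ± 3.56, 21.1 ± 1.63 and 24.3 ± 0.791 CPM per kb, close to both cyclooxygenases in the transgenic groups. Ltc4s, Ptges and Hpgds stood between 0.0400 and 1.00 CPM per kb in every group. The ratio of Alox15 to Alox5 per kb was 9.45 to 11.99 in mdx_IL5Tg, 7.14 to 11.7 in mdx and 8.26 to 10.6 in IL5Tg, so the ratio overlapped between all groups.

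Likeness was measured by root mean square difference of centred log2 CPM over the 9 libraries, with 0.5 added to each CPM. Among 7943 genes at or above the median level, the genes most like Ptgs1 were Socs2 (0.19), Gm2a (0.19) and Naaladl1 (0.20). Socs2, a feedback inhibitor of cytokine receptors, stood at 182 ± 21.8 CPM in mdx_IL5Tg, 26.6 ± 0.511 in mdx and 139 ± 7.59 in IL5Tg (SD, n = 3). Those most like Alox5 were Acss1 (0.07), Kpna2 (0.08) and Rdh11 (0.09), and those most like Alox5ap were Stk4 (0.07), Atg12 (0.08) and Rnf11 (0.09). Lta4h was nearest to Gpi1 (0.10), Spcs3 (0.12) and Tkt (0.12), enzymes of sugar metabolism apart from Spcs3. Among the genes nearest to Alox15 were RP23-261G3.5 (0.15) and Adora2a (0.16), and Adora2a, an adenosine receptor, stood at 270.4 ± 39.8 CPM in mdx_IL5Tg, 95.2 ± 32.5 in mdx and 124 ± 20.5 in IL5Tg. Hpgds was nearest to Igf1 (0.17), Il33 (0.32) and Ednrb (0.32), and Ptges to Cluh (0.19), Rabep1 (0.20) and Ipo5 (0.20). This likeness is a description of 9 libraries in 3 groups, and each value is a difference in log2 units. The added 0.5 shrinks the differences of scarce genes, Hpgds and Ptges among them.

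Beyond the 10 enzymes, 88 genes of the pathway in 7 lists were examined, of which 64 were tested. In mdx_IL5Tg against IL5Tg 6 were called higher and 1 lower, beside 4.35% and 2.87% of all tested genes. In mdx_IL5Tg against mdx 17 were called higher and 7 lower, beside 10.1% and 11.5%, and in mdx against IL5Tg 6 higher and 10 lower, beside 11.8% and 8.96%. The same shares stand beside the counts of each list below. The median log2 fold change of the 64 was 0.05, 0.03 and -0.03 in that order, beside -0.05, -0.13 and 0.01 over all genes. With library totals only, the split in mdx_IL5Tg against mdx was 8 higher and 13 lower. Without mdx_IL5Tg S1, mdx_IL5Tg S2 or IL5Tg S7, 1 pathway gene was called in mdx_IL5Tg against IL5Tg, without IL5Tg S8 or S9 there were 2, and without mdx S5 there were 11. Of the genes named below, Pla2g7, Mgll, Lpcat2, Lpcat3, Tbxas1, Dpep2, Cyp4f18, Slco2a1, Ptger2 and Ptgdr2 share 104 to 1031 exon bases with a gene on the opposite strand, and Dpep2 shares 1585 with another entry of the same name, so their counts carry that uncertainty.

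Of 18 lipase and related genes listed under arachidonate release or remodelling, 11 were tested. In mdx_IL5Tg against IL5Tg 3 were called higher and 0 lower (0 lower at an unadjusted p below 0.05 and by DESeq2 or limma voom). The strongest was Pla2g7, the secreted hydrolase of platelet-activating factor. It had 3449, 3388 and 2849 CPM in mdx_IL5Tg, against 2214, 2302 and 2208 CPM in mdx and 1112, 1498 and 1511 CPM in IL5Tg, and no groups overlapped. It was 2.35-fold higher in mdx_IL5Tg than in IL5Tg (log2 1.23, SE 0.16, edgeR adjusted p = 0.0035), a call that held in all 17 alternatives, and was also called higher in mdx_IL5Tg against mdx (log2 0.53) and in mdx against IL5Tg (log2 0.71). The call against mdx ended without mdx_IL5Tg S1, mdx_IL5Tg S2, mdx S4 or mdx S6 and with library totals only, where log2 was 0.21. Mgll, which breaks down monoglycerides, and Pnpla2, the adipose triglyceride lipase, were called higher in mdx_IL5Tg against IL5Tg (log2 0.64 and 0.65) and against mdx (log2 0.57 and 0.48). The calls of Mgll and Pnpla2 against mdx held in 14 and 10 of 17 alternatives, with log2 down to 0.25 and 0.16. Against IL5Tg each was called in 11 of 17 alternatives, the calls ending without mdx_IL5Tg S1, mdx_IL5Tg S2, IL5Tg S7 or IL5Tg S8 and with library totals only, for Mgll also without IL5Tg S9 and for Pnpla2 also with IL5Tg S7 and mdx S5 both left out. The lysosomal Pla2g15 was called higher (log2 0.79) and Pla2g16 lower (log2 -0.86) in mdx_IL5Tg against mdx, in 11 and 4 of 17 alternatives.

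Among 11 tested genes of arachidonate supply and reacylation, Acsl4, which charges arachidonic acid with coenzyme A, was called in all 3 comparisons. It averaged 527 ± 35.5 CPM in mdx_IL5Tg, 274 ± 11.9 CPM in mdx and 373 ± 44.6 CPM in IL5Tg (SD, n = 3), and log2 fold changes were 0.50 in mdx_IL5Tg against IL5Tg, 0.95 in mdx_IL5Tg against mdx and -0.45 in mdx against IL5Tg. The call of Acsl4 against mdx held in all 17 alternatives, that in mdx_IL5Tg against IL5Tg in 5 and that in mdx against IL5Tg in 9. Lpcat3, which puts arachidonic acid back into phospholipids, was called higher in mdx_IL5Tg against mdx (log2 1.14) and lower in mdx against IL5Tg (log2 -0.73). Lpcat2, the enzyme that makes platelet-activating factor in leukocytes, was called higher in mdx_IL5Tg against IL5Tg (log2 0.93, SE 0.21, edgeR adjusted p = 0.033), at 652 ± 86.6 CPM in mdx_IL5Tg and 341 ± 30.3 CPM in IL5Tg, and this ended without mdx_IL5Tg S1, mdx_IL5Tg S2 or any 1 IL5Tg library (edgeR adjusted p up to 0.15). The scarce Lpcat1 was called lower in mdx_IL5Tg against mdx (log2 -1.37) and higher in mdx against IL5Tg (log2 1.60), and the desaturase Fads1 lower in mdx_IL5Tg against mdx (log2 -1.28, but -0.84 and not called without mdx S4).

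The other prostanoid synthases gave 0 calls among 8 tested in mdx_IL5Tg against IL5Tg with edgeR (1 higher and 0 lower at an unadjusted p below 0.05, and 0 by DESeq2 or limma voom). In mdx_IL5Tg against mdx 3 were called higher. Tbxas1, the thromboxane synthase, averaged 114 ± 9.93 CPM in mdx_IL5Tg, 63.1 ± 4.98 CPM in mdx and 119 ± 16.7 CPM in IL5Tg (SD, n = 3), a log2 fold change of 0.85 in mdx_IL5Tg against mdx and -0.92 in mdx against IL5Tg, both called. The reductases Akr1b3 and Cbr1 were called higher in mdx_IL5Tg against mdx (log2 0.70 and 0.77). In mdx against IL5Tg, Akr1c18 was called lower, with 1, 0 and 0 counts in mdx against 24, 18 and 5 in IL5Tg and no fold given. Fam213b was called higher there (log2 2.18, edgeR adjusted p = 0.048) with 21, 52 and 20 counts in mdx against 5, 8 and 4 in IL5Tg, and was at 1.26 (edgeR adjusted p = 0.18) without mdx S5. That call held in 5 of 16 alternatives.

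Of 9 tested genes of other lipoxygenases and leukotriene steps, 0 were called in mdx_IL5Tg against IL5Tg by edgeR (2 higher and 0 lower at an unadjusted p below 0.05, 1 by DESeq2 and 0 by limma voom), and 2 were called higher and 1 lower in mdx_IL5Tg against mdx. Mgst1, a membrane glutathione transferase related to Ltc4s, had 72.0, 47.2 and 55.0 CPM in mdx_IL5Tg, against 9.69, 8.87 and 10.2 CPM in mdx and 56.0, 40.9 and 50.8 CPM in IL5Tg. The mdx libraries lay far below both transgenic groups, with log2 fold changes of 2.60 in mdx_IL5Tg against mdx (edgeR adjusted p = 1.3e-05, SE 0.19) and -2.36 in mdx against IL5Tg (SE 0.19, edgeR adjusted p = 2.4e-05). Alox12e, a lipoxygenase first known from epidermis, averaged 33.0 ± 5.62 CPM in mdx_IL5Tg and 8.37 ± 2.34 CPM in mdx (SD, n = 3) and lay between 14.3 and 23.9 CPM in IL5Tg. It was called higher in mdx_IL5Tg against mdx (log2 1.98) and lower in mdx against IL5Tg (log2 -1.25). Dpep2, a peptidase of leukotriene D4, went the other way with 30, 40.4 and 19 counts in mdx_IL5Tg, against 273, 45 and 104 counts in mdx and 5, 13 and 6 counts in IL5Tg. It was called lower in mdx_IL5Tg against mdx (log2 -2.22, edgeR adjusted p = 0.016), a call that ended without mdx_IL5Tg S1, mdx_IL5Tg S3 or mdx S4 (log2 -1.44 without mdx S4, edgeR adjusted p = 0.094), and higher in mdx against IL5Tg (log2 3.58, edgeR adjusted p = 0.0025).

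Epoxygenases and epoxide hydrolases were low, and of 5 tested 2 were called lower in mdx_IL5Tg against mdx, Cyp2j6 (log2 -1.27, in 13 of 17 alternatives) and Cyp2j9 (log2 -1.84, in 6 of 16). Without mdx S4 Cyp2j6 stood at -0.94. In breakdown and transport, Cyp4f18, which in mouse leukocytes oxidises leukotriene B4, was abundant. It had 2201, 2094 and 2151 CPM in mdx_IL5Tg, against 891, 1049.6 and 919 CPM in mdx and 1073, 1498 and 1520.2 CPM in IL5Tg. The groups did not overlap, though IL5Tg S7 and mdx S5 lay close together. It was called higher in mdx_IL5Tg against IL5Tg (log2 0.66, SE 0.16, edgeR adjusted p = 0.036) and against mdx (log2 1.17, SE 0.16, edgeR adjusted p = 9.0e-04) and lower in mdx against IL5Tg (log2 -0.52, SE 0.16, edgeR adjusted p = 0.040). The call against mdx held in all 17 alternatives and each of the other calls in 10, the call in mdx_IL5Tg against IL5Tg ending without mdx_IL5Tg S1, mdx_IL5Tg S2, mdx S6 or any 1 IL5Tg library and with library totals only. The call in mdx against IL5Tg ended without mdx_IL5Tg S1, mdx_IL5Tg S2, mdx S4, mdx S6, IL5Tg S8 or IL5Tg S9 and with only the groups compared. The prostaglandin transporter Slco2a1 was the 1 pathway gene called lower in mdx_IL5Tg against IL5Tg (log2 -1.01, SE 0.22, edgeR adjusted p = 0.030), at 8.78 ± 1.70 CPM in mdx_IL5Tg and 17.7 ± 2.66 CPM in IL5Tg, and that call ended without any 1 mdx_IL5Tg library, IL5Tg S7 or IL5Tg S9. The reductase Zadh2 and Cyp4f13 were called higher (log2 0.59 and 0.61) and Ptgr1 lower (log2 -1.66) in mdx_IL5Tg against mdx, and in mdx against IL5Tg Cyp4f16 was called higher (log2 1.09) and Abcc5 lower (log2 -0.97). The call of Ptgr1 held in 9 of 17 alternatives, that of Cyp4f16 in 10, that of Cyp4f13 in 12, that of Zadh2 in 14 and that of Abcc5 in all.

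Among 10 tested receptors, 0 were called in mdx_IL5Tg against IL5Tg by edgeR (2 higher and 0 lower at an unadjusted p below 0.05, 1 by DESeq2 and 0 by limma voom), and 3 were called higher in mdx_IL5Tg against mdx. Both leukotriene B4 receptors were among them. Ltb4r1, the high-affinity receptor, had 109, 91.6 and 87.9 CPM in mdx_IL5Tg, against 35.6, 43.4 and 39.1 CPM in mdx and 79.6, 65.1 and 82.2 CPM in IL5Tg. Ltb4r2, the low-affinity receptor, had 9.12, 7.18 and 7.73 CPM in mdx_IL5Tg, against 0.879, 0.636 and 1.01 CPM in mdx and 7.14, 4.87 and 5.29 CPM in IL5Tg. The mdx libraries lay below every transgenic library for both genes. In mdx_IL5Tg against mdx the log2 fold change was 1.29 (SE 0.14, edgeR adjusted p = 2.6e-04) for Ltb4r1 and 3.23 (SE 0.27, edgeR adjusted p = 3.3e-05) for Ltb4r2. In mdx against IL5Tg it was -0.94 (SE 0.14, edgeR adjusted p = 0.0015) for Ltb4r1 and -2.76 (SE 0.27, edgeR adjusted p = 1.0e-04) for Ltb4r2. The prostaglandin D2 receptor Ptgdr2, which draws eosinophils to sites of allergy, was called higher in mdx_IL5Tg against mdx (log2 0.90, SE 0.20, edgeR adjusted p = 0.011), at 9.62 ± 0.610 CPM in mdx_IL5Tg and 5.15 ± 0.363 CPM in mdx (SD, n = 3). Ptger2, a prostaglandin E2 receptor, was called higher in mdx against IL5Tg (log2 1.28, edgeR adjusted p = 0.036), a call that ended without mdx S4, IL5Tg S7 or IL5Tg S9 and with IL5Tg S7 and mdx S5 both left out.

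**Figure D5:**
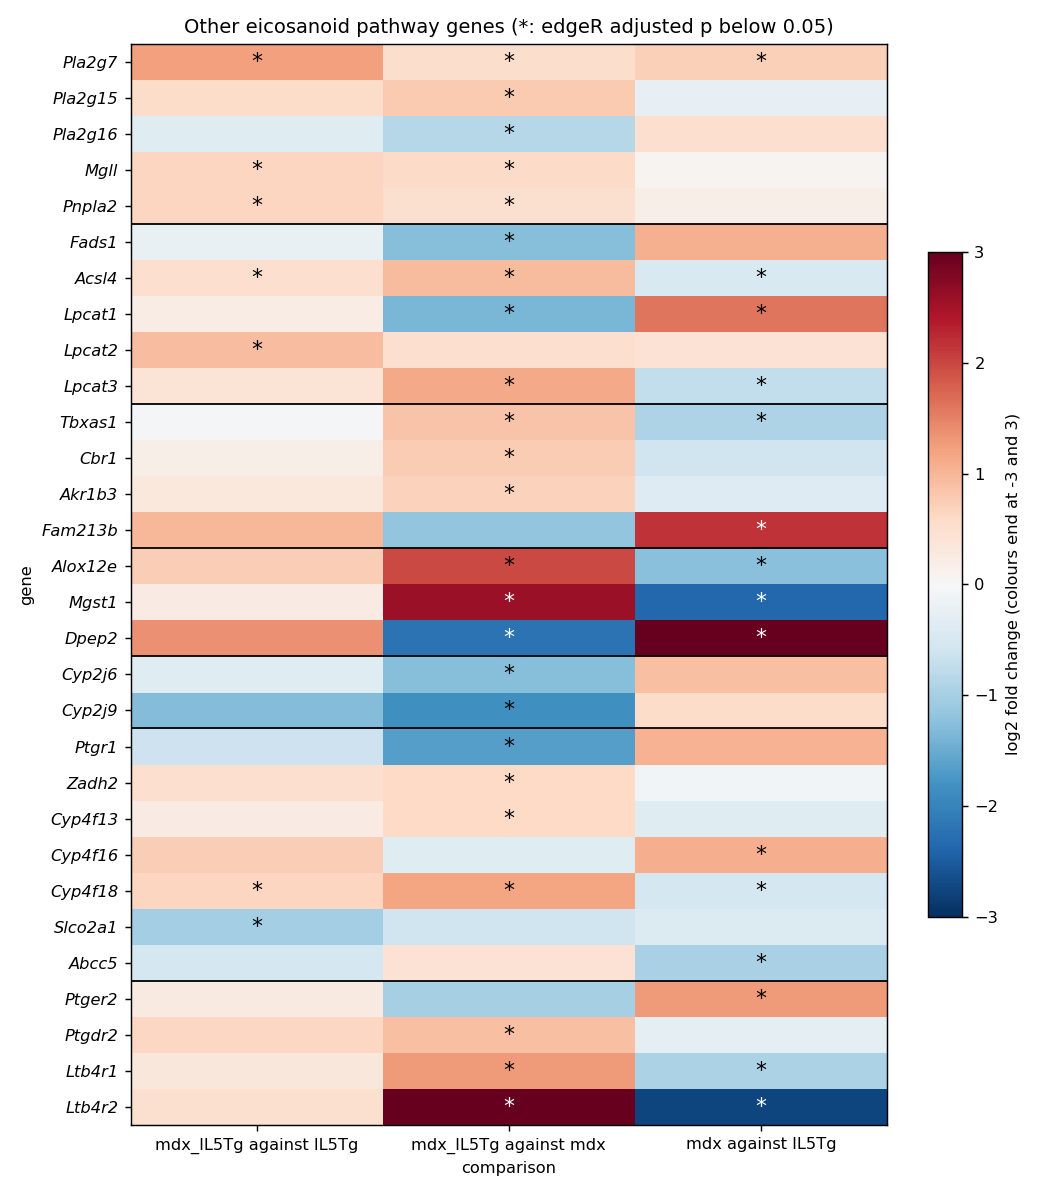
Log2 fold changes (colour scale, ending at -3 and 3) of the named pathway genes (vertical axis, lines between lists) in the 3 comparisons (horizontal axis), with an asterisk where edgeR's adjusted p was below 0.05; Akr1c18 is not drawn because its mdx libraries held 0 or 1 counts. Ltb4r2 (3.23) and Mgst1 (2.60) are the deepest red and Dpep2 (-2.22) the deepest blue in mdx_IL5Tg against mdx.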

How the data were processed

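RNA of sorted eosinophils was sequenced in 9 libraries. Values are expected counts in a single deposited table, for which the authors list cutadapt 2.10, STAR 2.5.3, RSEM 1.3.0, limma and the build mm10, per the submitters' processing notes. The sources used here give no settings, annotation or strand. Of all values 6.03% were not whole, and counts were rounded. Groups follow the titles, and columns carry S numbers that tie them to a group only. No column of per-sample values was left out.

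Genes were filtered with filterByExpr (minimum count 10), scaled by TMM and tested with edgeR 4.0.16's quasi-likelihood test in R 4.3.3, all 9 libraries in 1 fit, with Benjamini-Hochberg adjustment over 15886 genes at 0.05. The procedure was tested on simulated data. Positions are GENCODE M21 (GRCm38), which held 54079 of 54146 identifiers, and exon lengths from it give CPM per kb. Of each pathway list up to 4 genes per comparison are named, those with the smallest p among the called. Alternatives were DESeq2 1.42.0, limma 3.58.1 voom, other scalings and filters, a fit of only the groups compared, and leaving out each library. Leaving out IL5Tg S7 and mdx S5 together was chosen after seeing the data. The 10 enzymes, the lists and the motifs were chosen with earlier results of these data known. Replicates are called biological, and p-values measure the spread between these libraries. Some items among the markers and the genes most like an enzyme are not reported here.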

Additional observations from a re-analysis of the deposited data

How the results depend on the processing

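No paired analysis was possible because the columns carry S numbers and not the replicate numbers of the titles. In mdx_IL5Tg against IL5Tg, 0 enzymes were called with library totals only and 0 to 3 when 1 library was left out. All genes called there numbered 2464 with DESeq2, 1816 with only the groups compared, 1739 with IL5Tg S7 and mdx S5 both left out and 110 to 2641 when 1 library was left out, and pathway genes 11 with DESeq2, 4 with library totals only and 1 to 11 when 1 library was left out. In mdx_IL5Tg against mdx, leaving out 1 library gave 1521 to 4057 genes and 12 to 26 pathway genes. In mdx against IL5Tg it gave 1961 to 3837 genes and 3 to 6 enzymes. Library totals only moved the median log2 fold change of all genes to -0.27, -0.46 and 0.12 in the 3 comparisons, against -0.05, -0.13 and 0.01 with TMM, and the share of calls that were higher to 24.1%, 15.7% and 70.7%, against 60.2%, 46.7% and 56.8%. DESeq2 gave 49.0% in the first and only the groups compared 60.2% in mdx_IL5Tg against mdx. With 1 library left out the share was 49.8% to 98.2% in mdx_IL5Tg against IL5Tg, 49.3% to 71.8% in mdx_IL5Tg against mdx and 45.8% to 58.1% in mdx against IL5Tg, and without mdx_IL5Tg S1 it was 98.2%, 71.8% and 49.4%. Direction turned for differences that were not called. In mdx_IL5Tg against IL5Tg, Ptgs2 was at 0.079 with IL5Tg S7 and mdx S5 both left out, and with 1 library left out it ranged from -0.45 to 0.12 (without IL5Tg S7), Hpgds from -0.27 (without mdx_IL5Tg S2) to 0.91 and Ptges from -0.36 to 0.10 (without mdx_IL5Tg S1). With library totals only, Alox5ap was at -0.024, Lta4h at -0.12 and Pla2g4a at -0.092 there, and Ptgs2 at -0.14 in mdx_IL5Tg against mdx. In mdx against IL5Tg, Ptgs2 was at 0.050 with the same pair left out, and Ltc4s ranged from -0.60 to 0.32 (without IL5Tg S9), with 0.15 without mdx S6. The causes were not tested. Of the enzymes' other values under alternatives, 447 kept direction and side of the threshold, 31 lost the call and 14 gained one, and of the values of named pathway genes in the comparisons where they were called, 635 kept the call and 158 lost it. Gains among other pathway genes were not tallied. Low counts limit what can be said of Hpgds, Ltc4s and Ptges.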
